A study of Oryctolagus cuniculus with 16 samples.

Results

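The contractile genes ACTA2, MYH11, TPM2, MYLK3 and ROCK1 were followed probe by probe in rabbit vein after sham surgery and after grafting. Every probe whose transcript identifier mapped to 1 of the 5 gene symbols was taken, which gave 13 of the 43603 probes on the array. The 5 were among 2127 genes with a named probe. ACTA2, MYH11 and TPM2 had 1 probe each, and MYLK3 and ROCK1 had 5 each, all 5 on a single transcript. All 13 probes were above background on every array, none was saturated or excluded by the scanner software, and all 13 were among the 35715 probes tested.

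RNA came from whole vein tissue of male rabbits and was hybridised to 1-colour Agilent rabbit arrays. The groups were vein grafts taken 1 day after surgery (6 arrays), vein grafts taken 7 days after surgery (the surgery group, 6 arrays) and sham-operated vein (the control group, 4 arrays). The time of sham sampling, the vein, the host artery, the strain and the age were not given in the sources used here. The comparisons ask how the contractile programme stood in the early graft, at the later time point studied for restenosis, and between them.

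Smooth muscle shortens when myosin filaments pull on actin filaments. Calcium and calmodulin activate myosin light chain kinase, which phosphorylates the myosin light chain, and a phosphatase removes that phosphate. ROCK1, a protein kinase found in most cell types, inhibits the phosphatase and so keeps the light chain phosphorylated. ACTA2 encodes smooth muscle alpha-actin, MYH11 smooth muscle myosin heavy chain and TPM2 beta-tropomyosin, which lies along the actin filament. MYLK3 encodes the cardiac light chain kinase, not the kinase MYLK that acts in smooth muscle. In injured vessels, smooth muscle cells are known to lose contractile proteins as they shift to a proliferating, matrix-producing state.

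Arrays of a group were not equally distant from each other. Graft arrays 1, 3 and 5 differed by less than the spread between repeated spots of 1 probe, and so did arrays 2, 4 and 6. They held the same slide position in each of 3 scans and were averaged, which left 2 samples on day 1, 2 on day 7 and 4 in sham. The 2 samples of a graft group differed only slightly more than the spots, with variance ratios of 1.14 to 1.33 for the day 1 samples and of 1.17 to 1.23 for those of day 7. Among the controls, arrays 1 and 2 stood apart from arrays 3 and 4, with ratios of 18.5 to 19.4 between the pairs and 1.61 to 2.43 within them. Nothing in the labels ties samples to separate animals, so p-values measure only the spread between these samples, which may be technical. All sham arrays were in a scan of their own, so for sham against graft the scan and the operation cannot be told apart. The 75th percentile of signal was 863 to 1023 on day 1 arrays, 2488 to 2831 on day 7 arrays and 1329 to 2026 on sham arrays.

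Values below are quantile-normalized log2 signals, and a difference of 1 on this scale is a factor of 2. The thresholds for a call were an adjusted p-value below 0.05 by limma and a log2 fold change of 1 or more in either direction. On day 1 the contractile genes other than MYLK3 were far lower than in sham. By day 7 their courses had separated: ACTA2 was within 0.49 of the sham mean, TPM2 and ROCK1 were about 1 below it, and MYH11 was 6.49 below it.

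**Figure D1:**
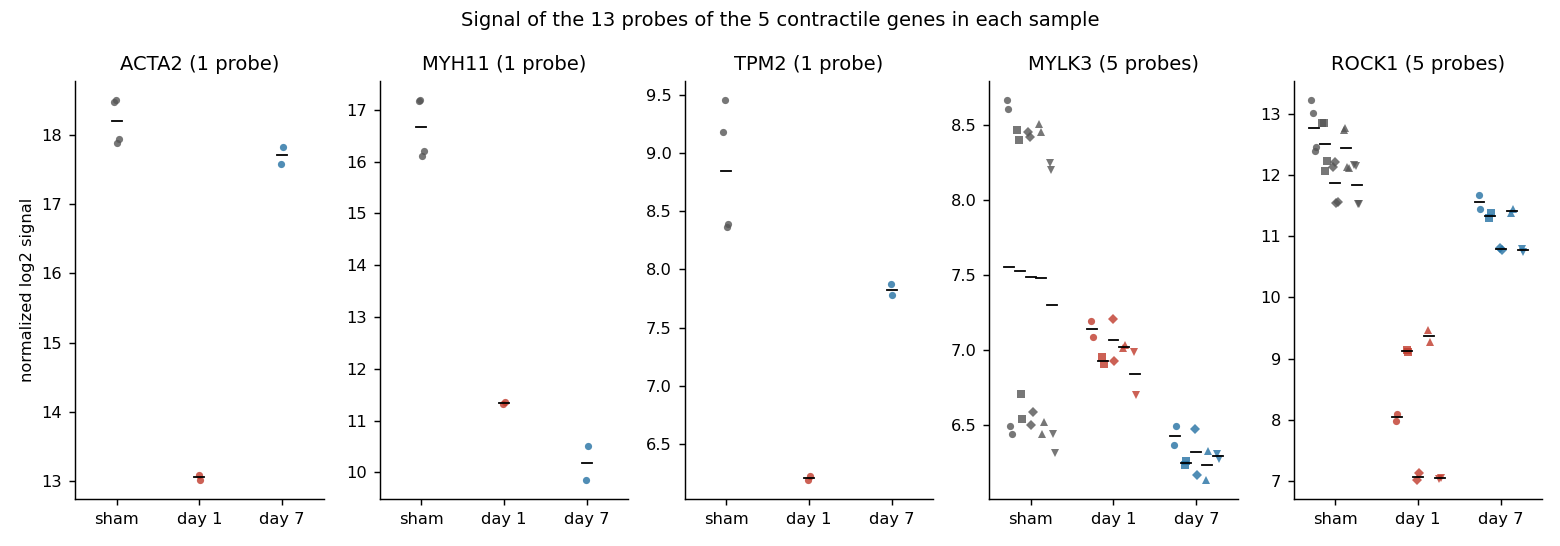
Normalized log2 signal (vertical axis, a separate scale for each gene) of the 13 probes in each sample of the sham, day 1 and day 7 groups. Points are samples, marker shapes are probes of a gene, and black bars are group means. ACTA2, TPM2 and ROCK1 had their lowest group mean on day 1, MYH11 on day 7, and MYLK3 split the sham samples into a high and a low pair.

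ACTA2 fell steeply on day 1 and read near the sham level on day 7. Its probe, A_04_P001711, read 18.47, 18.50, 17.89 and 17.94 in sham samples 1 to 4. It read 13.09 and 13.02 in the 2 day 1 samples and 17.59 and 17.83 in the 2 day 7 samples. All day 1 values lay below all sham values, and both day 7 values lay just under the lowest sham value. On day 1 ACTA2 was down-regulated 35.4-fold, a log2 fold change of -5.14 ± 0.21 (SE, adjusted p-value 1.15e-06 by limma). On day 7 the log2 difference from sham was -0.49 (95% confidence interval -0.99 to 0.01, adjusted p-value 0.0814 by limma), which did not pass. From day 1 to day 7 the gene rose 25.1-fold (4.65 ± 0.24, adjusted p-value 9.17e-06 by limma).

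Before normalization the ACTA2 signal was 4970 to 6077 on day 1 arrays, 363401 to 482467 on day 7 arrays and 202353 to 364099 on sham arrays. Most day 7 arrays were thus brighter than sham at this probe before normalization, and the 75th percentile of signal was higher on those arrays as well. The day 7 difference kept its sign in all 21 alternative settings, between -0.78 and -0.05. Actins are close in sequence, and how much related actins add to this probe was not tested.

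MYH11, the most restricted smooth muscle gene of the set, did not follow ACTA2 back. Its probe, A_04_P001396, read 17.18, 17.19, 16.11 and 16.20 in sham, 11.33 and 11.36 on day 1, and 9.86 and 10.50 on day 7. The lowest sham value was above every graft value, and both day 7 values were below both day 1 values. MYH11 was down-regulated 40.1-fold on day 1 (-5.33 ± 0.38, adjusted p-value 1.39e-05 by limma). It was down-regulated 89.8-fold on day 7 (-6.49 ± 0.38, adjusted p-value 1.05e-05 by limma). Only 0.235% of the probes tested had a lower day 7 fold change against sham. The further step from day 1 to day 7 was -1.16 (95% confidence interval -2.20 to -0.13), with an adjusted p-value of 0.0517 by limma, which did not pass. That step passed in 14 of 20 alternative settings, among them each setting that left out 1 sham sample (adjusted p-values 0.0388 to 0.0483 by limma). Sham samples enter this contrast only through the shared estimate of spread, and some of the 14 settings counted repeat arrays as separate samples. The step did not pass with any 1 graft sample left out, with each graft group as 1 sample or without the filter on dim probes. Over the 20 settings it was -1.49 to -0.84.

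TPM2 gave a dim signal with the course of ACTA2 on a smaller scale. Its probe, A_04_P002036, read 9.19, 9.46, 8.36 and 8.39 in sham, 6.19 and 6.22 on day 1, and 7.88 and 7.78 on day 7. The 3 groups did not overlap. TPM2 was down-regulated 6.27-fold on day 1 (-2.65 ± 0.33, adjusted p-value 0.00024 by limma) and 2.03-fold on day 7 (-1.02 ± 0.33, adjusted p-value 0.0299 by limma). It rose 3.08-fold from day 1 to day 7 (1.62 ± 0.38, adjusted p-value 0.00786 by limma). The day 7 fall lay at the threshold, and its call was lost in 7 of 21 alternative settings, where the fall was as small as -0.55. Among these were the settings without either day 7 sample and without sham sample 1 or 2 (-1.07 to -0.82). Normexp background correction and sham arrays 3 and 4 only were also among them. The rise from day 1 to day 7 was 0.99 with scaling to the 75th percentile and 0.89 with normexp background correction, and was then not called.

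ROCK1 was measured by 5 probes, and all 5 fell on day 1 and were partly back by day 7. The brightest, A_04_P102663, read 12.73, 12.77, 12.12 and 12.11 in sham, 9.47 and 9.26 on day 1, and 11.38 and 11.44 on day 7. The probe with the deepest fall, A_04_P102664, read 12.16, 12.15, 11.52 and 11.53 in sham, 7.04 and 7.05 on day 1, and 10.79 and 10.75 on day 7. On each of the 5 probes every day 1 value was below every day 7 value, and every day 7 value was below every sham value. On day 1 the log2 fold change was -3.06 for A_04_P102663 and -3.38 for A_04_P002497. It was -4.73 for A_04_P002496, -4.79 for A_04_P002498 and -4.80 for A_04_P102664. The confidence intervals of the first pair, -3.96 to -2.52, did not overlap those of the other 3 probes, -5.33 to -4.13, although all 5 probes are assigned to 1 transcript. Day 1 standard errors were 0.22 to 0.25, and the largest adjusted p-value of the 5 was 1.79e-05 by limma.

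On day 7 the 5 ROCK1 probes lay close together, with log2 fold changes of -1.21 to -1.02 against sham (standard errors 0.22 to 0.25, adjusted p-values 0.00459 to 0.00685 by limma). All 5 were called, close to the threshold, and their intervals reached up to -0.48. Each probe lost its call in 2 to 7 of its 20 or 21 alternative settings, with no change of sign. All 5 lost it against sham arrays 3 and 4 only (-0.87 to -0.70) and with each graft group as 1 sample (adjusted p-values 0.0642 to 0.0776 by limma), and 3 of the 5 lost it in each of the settings without sham sample 1, without sham sample 2 and with normexp background correction. From day 1 to day 7 the probes rose by 2.04 to 3.72 on the log2 scale (adjusted p-values 2.52e-05 to 0.000485 by limma). The smaller rises were those of A_04_P102663 and A_04_P002497, the probes with the smaller day 1 fall.

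MYLK3, whose product is known mainly from heart muscle, was dim and gave no call. Its probes carried the names A_04_P055057 to A_04_P055061, and 1 of them, A_04_P055057, carried its own gene identifier. The other 4 were named through the shared transcript. A_04_P055057 read 8.67, 8.60, 6.49 and 6.44 in sham, 7.20 and 7.09 on day 1, and 6.37 and 6.50 on day 7. Sham samples 1 and 2 were therefore above all graft samples, and sham samples 3 and 4 were below the day 1 samples. Over the 5 probes the sham values were 8.20 to 8.67 in samples 1 and 2 and 6.32 to 6.71 in samples 3 and 4. The sham standard deviation was 1.05 to 1.25 (n = 4), against at most 0.22 in either graft group (n = 2 each).

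The MYLK3 log2 fold changes were -0.60 to -0.41 on day 1 and -1.28 to -1.01 on day 7 against sham, and -0.79 to -0.55 on day 7 against day 1. Adjusted p-values by limma were 0.393 to 0.622, 0.104 to 0.215 and 0.398 to 0.524, so none passed. The intervals were wide, from -2.11 to 1.29 for the brightest probe on day 1 and from -2.82 to 0.58 on day 7. The result depended on which sham samples were used. Against sham arrays 1 and 2 only, all 5 probes were called lower on day 7 (-2.25 to -1.93). Against sham arrays 3 and 4 only, none was called on day 7 and the day 1 difference turned to 0.31 to 0.68.

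**Figure D2:**
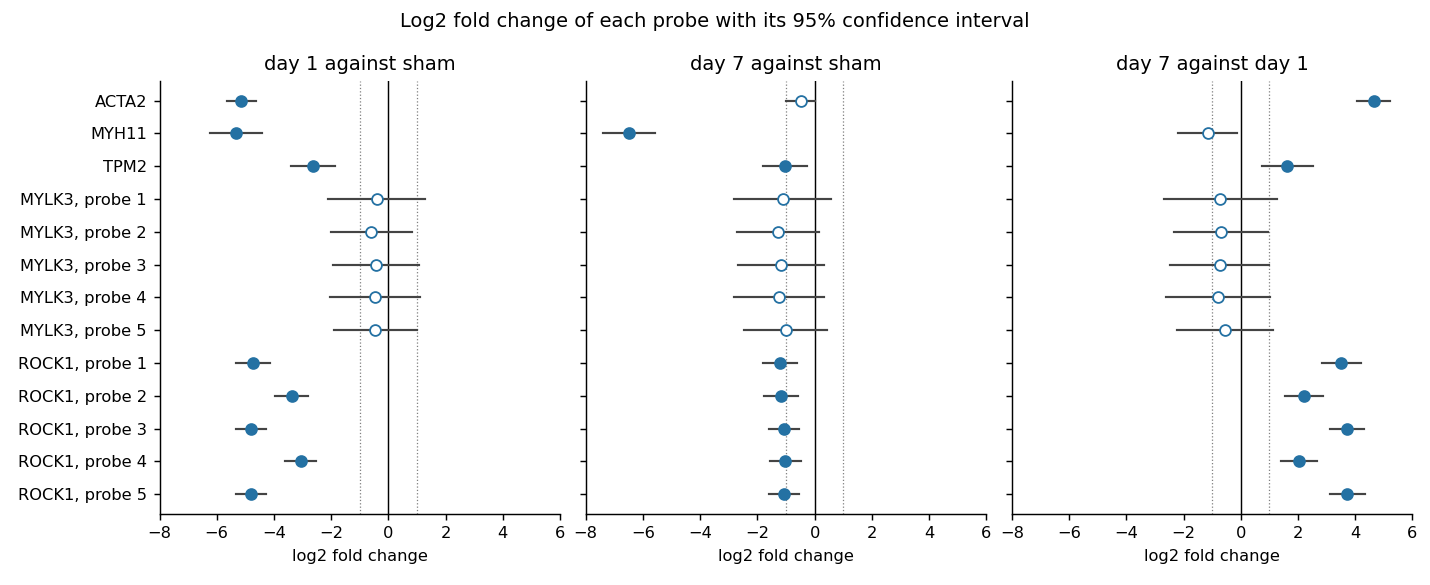
Log2 fold change (horizontal axis) of each of the 13 probes in the 3 comparisons, with lines for the 95% confidence interval. Filled points were called, open points were not, and dotted lines mark a log2 fold change of 1 in either direction. The day 7 panel shows MYH11 at -6.49 and the ROCK1 probes between -1.21 and -1.02.

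On day 1, 8 of the 13 probes were called lower than sham and none higher. The array as a whole was strongly changed, with 49.8% of all tested probes called and 24.6% called lower. On day 7, 7 of the 13 probes were called lower, where 32.9% of all probes were called and 15.4% were called lower. Between the graft groups, 7 of the 13 probes were called higher on day 7, where 40% of all probes were called and 21.1% were called higher. The 5 probes of MYLK3 and the 5 of ROCK1 each share a transcript, so these counts stand for 4, 3 and 3 of the 5 genes. Both sham comparisons use the same sham samples. On day 1 the samples of 8 probes lay wholly below sham, as did those of 38.7% of all probes, and the 5 MYLK3 probes overlapped. On day 7 they lay wholly below sham for 12 probes, against 34.1% of all probes. Day 7 lay wholly above day 1 for 7 probes and wholly below it for 6, against 43.9% and 46.1% of all probes.

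The day 1 count of 8 did not change when any 1 sample was left out. The day 7 count ranged from 3 to 8, and it was 3 without sham sample 1 and 3 without sham sample 2. It was 12 against sham arrays 1 and 2 only, 1 against sham arrays 3 and 4 only, and 12 with all 16 arrays as separate samples. MYH11 was the probe called under every one of these settings. Day 1 and day 7 arrays were scanned together, and the difference between them could be taken within each of the 3 scans. It was 4.60 to 4.69 for ACTA2, -1.17 to -1.16 for MYH11, 1.58 to 1.66 for TPM2 and 2.02 to 3.77 for the ROCK1 probes. Each scan held 1 array of every graft sample, so the 3 differences repeat the same samples and are not replicates.

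In bulk tissue, fewer cells of a type and less RNA per cell cannot be told apart. Genes of the lists were counted by their brightest probe. Among the 2000 named genes tested, 25.3% were called higher and 25.8% lower on day 1, and 18.6% and 16.8% on day 7. The counts of every list below are to be read beside these shares. Of 13 listed smooth muscle markers 6 were named and tested, and 3 of them are ACTA2, MYH11 and TPM2. The other 3 were TPM1, CALD1 and DES. Of these, TPM1 was called lower on day 1 and not on day 7, and CALD1 and DES were called lower on day 7 and not on day 1. The mean log2 signal of the 6 was 14.2 to 15.5 in sham samples, 11.6 in both day 1 samples and 12.4 to 12.6 in day 7 samples. In the opposite direction, 8 of 8 macrophage markers rose at both times. Their mean signal was 7.23 to 8.54 in sham, 11.9 on day 1 and 13.7 on day 7. The scavenger receptor MSR1 rose by 6.17 on day 1, and the macrophage elastase MMP12 rose by 10.95 on day 7. Fibroblast markers had a mean of 16.4 to 16.9 in sham, 14.1 on day 1 and 17.3 to 17.4 on day 7, so their low point was on day 1 as for ACTA2. Of 7 tested, 5 fell on day 1, while 2 rose and 1 fell on day 7. That day 7 fall was DCN, at -1.89 on its brightest probe. Its other probes gave -1.56 to 0.01, and of these only the lowest was called.

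Striated muscle RNA stood out on day 1. Of 12 tested striated muscle markers, 8 rose on day 1, and their mean signal was 9.14 to 9.19 against 7.10 to 7.19 in sham and 6.70 to 6.80 on day 7. The calcium pump ATP2A1 rose by 7.26, the light chain MYL1 by 5.28 and the heavy chain MYH1 by 5.15. CASQ2 and RYR2 fell on day 1, with log2 fold changes of -3.59 and -3.63. TNNC1 was called at -2.19, a call that was lost in 6 settings (-2.33 to -1.36), among them those without either day 1 sample. On day 7, 4 rose and 3 fell, among them CKM, which was not above background on any day 7 array. TPM2 and MYLK3 are also expressed in striated muscle. Of 7 endothelial markers, 3 fell and 1 rose on day 1 and 4 fell on day 7, and KDR, among the falls, was not above background on any graft array. Of 3 adipocyte markers 1 fell at each time. ADIPOQ was not above background on any day 1 array and was at least 53.3-fold lower than in sham (adjusted p-value 1.25e-05 by limma), taking the lowest signal above background on each array as its day 1 bound. Of 5 lymphocyte markers, 3 rose on day 1 and 2 on day 7. No red blood cell marker was among the named probes. The part of these cell types in the changes of the contractile genes was not tested.

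**Figure D3:**
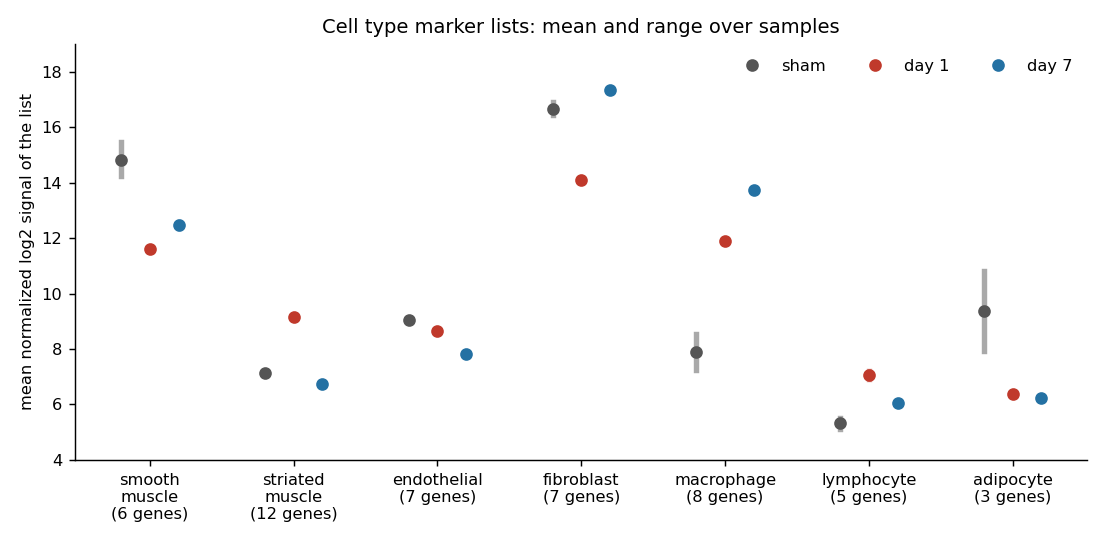
Mean normalized log2 signal (vertical axis) of the tested genes of each cell type marker list in the sham, day 1 and day 7 groups. Points are group means and bars the range over samples. The smooth muscle list, which includes ACTA2, MYH11 and TPM2, fell from 14.8 in sham to 11.6 on day 1. The macrophage list went from 7.90 to 11.9.

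The tropomyosins did not move as a family. TPM1, the other main muscle tropomyosin, read 16.90, 16.99, 15.31 and 15.26 in sham, 11.93 in both day 1 samples, and 15.21 and 15.52 on day 7. It fell by 4.18 on day 1 (adjusted p-value 0.000355 by limma), and its 7 probes gave -4.23 to -3.86. On day 7 its difference from sham was -0.75 (adjusted p-value 0.28 by limma), which turned to 0.31 with scaling to the 75th percentile. TPM4, a tropomyosin of non-muscle cells, went the other way. It rose by 2.45 on day 1 and by 1.53 on day 7, and all 5 of its probes rose by 2.45 to 2.64 and by 1.43 to 1.67.

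CALD1, an actin-binding inhibitor of myosin, read 17.72, 17.96, 17.49 and 17.47 in sham, 17.37 and 17.38 on day 1, and 16.09 and 15.99 on day 7. It fell late, by 1.62 on day 7, while its day 1 difference was -0.28 (adjusted p-value 0.129 by limma). With scaling to the 75th percentile the day 7 difference was -0.63 and was not called. ACTB, the cytoplasmic beta-actin, was at 18.95 to 19.14 in all samples at its brightest probe. The differences of that probe from sham were 0.13 on day 1 and 0.01 on day 7, neither called, and they changed sign in some settings. With scaling to the 75th percentile the day 1 difference was 1.26 and was called. Other ACTB probes disagreed on day 7. A_04_P001716 was at -0.40 (adjusted p-value 0.011 by limma) and A_04_P035462 at 0.68 (adjusted p-value 0.000982 by limma), both below the fold threshold. Over the 9 tested thin filament genes, 3 rose and 4 fell on day 1, with a median log2 fold change of -0.28. On day 7, 2 rose and 2 fell, with a median of -0.39. Over all 2000 named genes tested the medians were 0.12 and 0.01, with 25.3% called higher and 25.8% lower on day 1, and 18.6% and 16.8% on day 7. The troponins TNNC2 and TNNI2, of fast skeletal muscle, rose by 3.70 and 3.37 on day 1.

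MYH11 was 1 of 5 tested myosin genes and the only 1 of them called lower than sham. The other 4, MYH1, MYH3, MYH6 and MYL1, are striated muscle genes. On day 1, 3 of the 5 rose, with a median of 2.24. On day 7, 2 rose, with a median of 0.47. MYH3, the embryonic skeletal heavy chain, was called at 1.72 on day 7, and MYL1 at 1.45. With normexp background correction the values were 0.62 and 0.27 and were not called, and leaving out day 7 sample 1 also ended both calls. The brightest probe of MYH1 was at 0.47 on day 7 (adjusted p-value 0.0198 by limma), below the fold threshold. Its 4 probes ranged from 0.47 to 2.23, and 1 of them, A_04_P002673, was called higher (adjusted p-value 0.0394 by limma).

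The light chain phosphorylation list held ROCK1, MYLK3 and 12 other tested genes. Of the 14, 6 fell and 1 rose on day 1 (median -0.97), and 4 fell and 1 rose on day 7 (median -0.69). The protein kinases PRKCA and PRKCE, among the day 1 falls and named for that reason, were not above background on any day 1 array and were at least 2.22-fold and 2.15-fold lower. RHOA, the GTPase that activates ROCK1, read 16.31, 16.23, 15.95 and 15.96 in sham, 15.18 and 15.13 on day 1, and 16.80 and 16.78 on day 7. At this probe, the brightest, the day 1 difference from sham was -0.96 (adjusted p-value 0.000387 by limma). The day 7 difference was 0.68 (adjusted p-value 0.0032 by limma), and both were below the fold threshold. The day 1 difference was called lower in 4 of 21 alternative settings. Over the 3 RHOA probes it was -1.05 to -0.90, and A_04_P069393, at -1.05, was called lower (adjusted p-value 4.28e-05 by limma). Between the grafts RHOA rose, by 1.64 for the brightest probe and by 1.55 to 1.73 over its 3 probes. PRKG1, the cGMP-dependent kinase that favours relaxation, read 10.54, 10.46, 9.89 and 9.83 in sham, 6.75 and 6.85 on day 1, and 6.88 and 6.89 on day 7. It fell at both times, with log2 fold changes of -3.37 on day 1 and -3.29 on day 7, and its other probe gave -4.41 and -2.91.

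PRKCB, a protein kinase C also abundant in leukocytes, was the riser of the list, by 4.84 on day 1 and 2.37 on day 7 at its brightest probe. Its 6 probes gave 1.81 to 4.84 on day 1 and 1.14 to 2.37 on day 7. The integrin-linked kinase ILK fell on day 1 (-1.90), and all 4 of its probes were called lower. On day 7 it was called at -1.21, but its probes ranged from -1.26 to -0.31 with 3 of the 4 called, and the call was lost in 4 settings, and the value was -0.45 with scaling to the 75th percentile. CAMK2G, a calmodulin-dependent kinase, fell by 2.29 on day 7. MYLK2, the skeletal muscle light chain kinase, had 5 probes on the array, and none passed the background filter. No probe was named as MYLK, MYL9, ROCK2, TAGLN, CNN1, ACTG2, MYH9 or MYH10, so these genes were not analysed here.

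**Figure D4:**
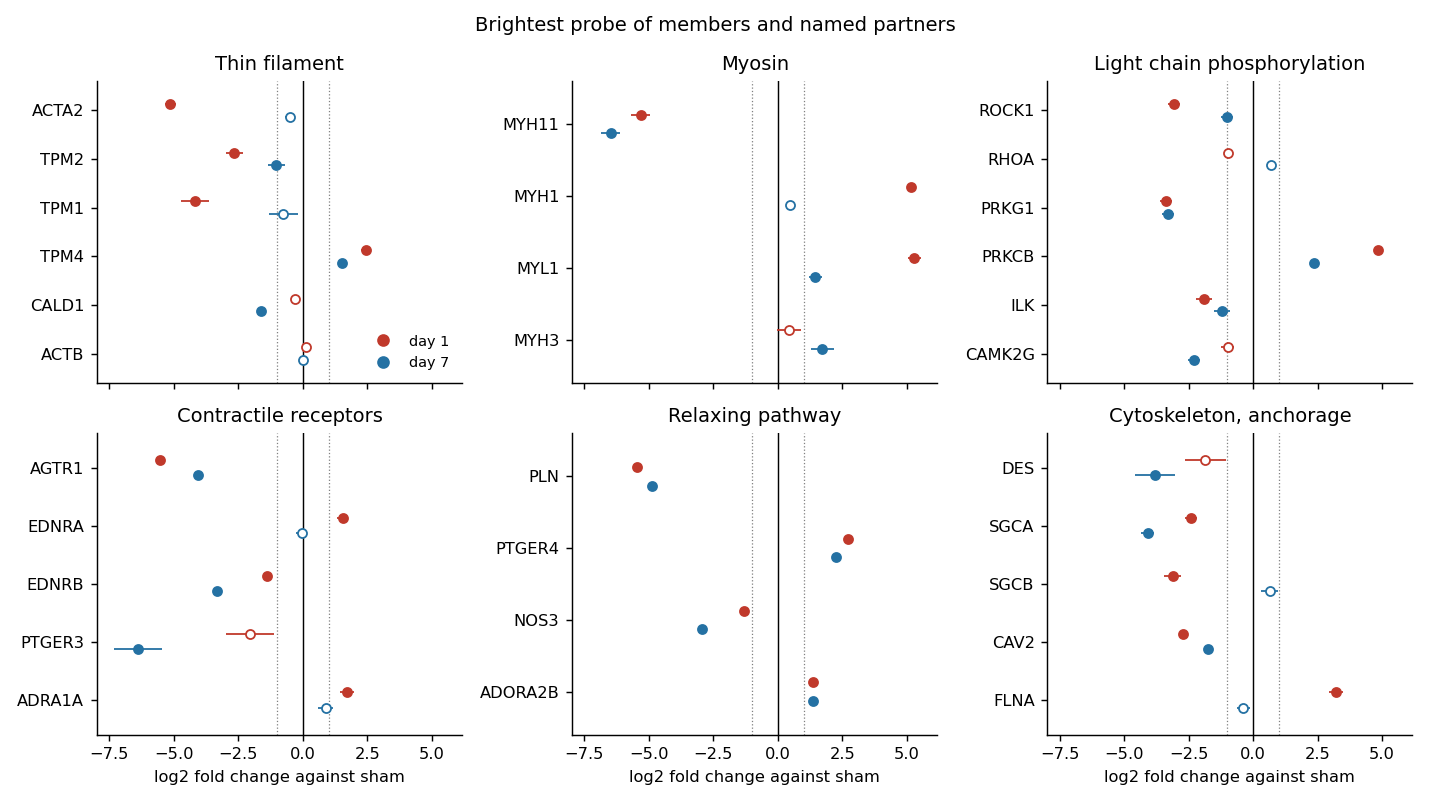
Log2 fold change against sham (horizontal axis) on day 1 and day 7 for the brightest probe of contractile genes and named partners, by list. Lines are standard errors, filled points were called, and dotted lines mark a log2 fold change of 1 in either direction. AGTR1 and PLN lay below -4 at both times, and the day 7 points of ACTA2 and TPM1 lay near sham.

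Receptors that drive contraction were mixed. Of 7 tested, 2 rose and 2 fell on day 1 (28.6% each, median -0.38), against 25.3% higher and 25.8% lower over all named genes. On day 7, 4 fell (57.1%), against 16.8% over all named genes. One of the 4, ADRA2A, was not above background on any day 7 array and was at least 1.45-fold lower. The angiotensin receptor AGTR1 read 13.23 to 13.34 in sham, 7.81 and 7.73 on day 1, and 9.09 and 9.36 on day 7. It fell at both times, with log2 fold changes of -5.53 and -4.07. Of the endothelin receptors, EDNRB fell at both times (-1.37 and -3.31). The 3 probes of EDNRA disagreed on day 1. The brightest, which put the gene among the 2 that rose, was at 1.54, while the others were called lower, at -6.47 and -3.83. None of the 3 was called on day 7, so no direction is given for EDNRA. The prostaglandin receptor PTGER3 fell by 6.39 on day 7, and its sham samples were split, at 10.48 and 10.49 in samples 1 and 2 and 13.27 and 13.41 in samples 3 and 4. The alpha-adrenergic receptor ADRA1A rose by 1.72 on day 1.

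In the relaxing pathway 2 of 5 tested genes rose and 2 fell at both times. PLN, phospholamban, which restrains the calcium pump of the sarcoplasmic reticulum, fell at both times (-5.46 and -4.86). NOS3, the endothelial nitric oxide synthase, also fell (-1.31 and -2.95). At their brightest probes the prostaglandin receptor PTGER4 rose by 2.72 and 2.27 and the adenosine receptor ADORA2B by 1.38 at both times. The 6 probes of PTGER4 gave 0.98 to 2.86 on day 1 and 1.59 to 2.27 on day 7. A_04_P085712 and A_04_P085714 were below the fold threshold on day 1, at 0.98 and 0.99. The other ADORA2B probe was at 0.75 on day 1 (adjusted p-value 0.0822 by limma), not called, and was called at 1.34 on day 7 (adjusted p-value 0.012 by limma). With normexp background correction NOS3 on day 1 was at -0.83 and ADORA2B at 0.70 and 0.72, and these were not called.

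Anchorage genes mostly fell on day 1. Of 9 tested cytoskeleton and anchorage genes, 5 fell and 1 rose on day 1 (median -1.85), and 4 fell on day 7 (median -0.66). SGCA, a sarcoglycan that links the muscle membrane to the matrix, fell at both times (-2.41 and -4.09). SGCB fell by 3.12 on day 1 and was at 0.65 against sham on day 7 (adjusted p-value 0.135 by limma). DES, the muscle intermediate filament desmin, read 12.70, 12.64, 10.33 and 10.27 in sham, 9.68 and 9.59 on day 1, and 7.57 and 7.82 on day 7. At this probe the samples did not overlap between groups, yet the day 1 difference of -1.85 did not pass (adjusted p-value 0.0665 by limma), and the day 7 difference of -3.79 did (adjusted p-value 0.00478 by limma). The other, dimmer DES probe was called lower at both times, at -6.84 and -6.31 (adjusted p-values 0.000318 and 0.000755 by limma), and the brightest probe itself was called lower on day 1 in 5 of 21 alternative settings. The caveolin CAV2 fell at both times (-2.72 and -1.74). Filamin A, FLNA, rose by 3.21 on day 1 and was at -0.38 on day 7, which did not pass.

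Only 3 genes of the transcription list were tested. TGFB3 was not above background on any day 1 array and was at least 7.73-fold lower than in sham. The 7 probes of KLF5, a factor of proliferating smooth muscle, disagreed. Its brightest probe was at 4.33 on day 1 and at 2.94 on day 7. All its other probes were lower, at -0.98 to 0.25 on day 1 and at -1.12 to -0.55 on day 7. A_04_P000826 was called lower on day 7 (-1.12, adjusted p-value 0.00193 by limma), so no direction is given for KLF5. TGFB2, a growth factor that supports contractile gene expression, fell at both times (-1.55 and -2.10).

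Across the 8 samples, the brightest ROCK1 probe ran with TPM2 (Pearson's r 0.99) and ACTA2 (0.97), and ACTA2 ran less closely with MYH11 (0.55). These coefficients describe 3 groups of samples and largely reflect their means. The named genes most like ACTA2 were CYP27C1, NAALAD2 and LOC100353171, each at 1.00, and those most like MYH11 were RGS4, FOXP2 and MYOC, also each at 1.00. Those most like TPM2 were TTC7B (1.00), GAREM1 (0.99) and CLCN3 (0.99), and those most like ROCK1 were MFSD8, NKAPD1 and PALM2AKAP2 (each 1.00). For MYLK3 they included CIR1 (1.00) and CLDN7 (0.99). Such likeness was common among the 1995 other named genes, of which 261 exceeded 0.9 with ACTA2, 192 with MYH11, 200 with TPM2, 248 with ROCK1 and 23 with MYLK3.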

How the data were processed

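Vein RNA was hybridised to 16 arrays of 45220 spots, and the authors deposited scanner intensity files. The submitters' processing notes name Agilent Feature Extraction 9.1, and the file headers name version 11.0.1.1. The authors also deposited log2 values, which their methods describe as quantile-normalized with low intensity genes removed. These hold 33670 probes and served as an alternative. Background-subtracted intensities were quantile-normalized, control and flagged spots were left out, spots of a probe were averaged, and arrays closer than the spot noise were averaged to 8 samples. A probe was kept where all arrays of any 1 group were above background, and kept probes were fitted with limma 3.58.1 in R 4.3.3, with all 3 groups in 1 model and Benjamini-Hochberg adjustment over all 35715 probes.

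Genes were named through RefSeq accessions or transcripts with a gene identifier, using a RefSeq gene table of another assembly for names only. This named 6184 probes of 2127 genes, and most probes had no gene name. In lists each gene was taken by its brightest probe. Named genes were all member probes, fixed relatives, the 2 largest rises and 2 largest falls per list against sham, and the 3 genes most correlated with each member, of which a few are not reported here. The members and lists were chosen with earlier results of these data known. The number of arrays limits the precision. On simulated data 200 of 35388 probes were changed by 2 on the log2 scale. Of these, 82.5%, 78% and 68.5% were recovered in the day 1 and day 7 comparisons with sham and between the grafts. The simulated noise was independent, with the same spread of a probe in all groups. In the data 32.9% to 49.8% of probes were called and the sham arrays formed pairs, so these shares do not measure recovery there. No probe sequences or coordinates were used here.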

Additional observations from a re-analysis of the deposited data

Results flagged for a closer look

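The change against sham differed between day 1 and day 7 for 7 contractile probes, by the day 7 against day 1 contrast of limma. The day 7 value exceeded the day 1 value by 4.65 on the log2 scale for ACTA2 and by 1.62 for TPM2. For ROCK1 the difference was 3.52 (A_04_P002496), 2.21 (A_04_P002497), 3.72 (A_04_P002498), 2.04 (A_04_P102663) and 3.72 (A_04_P102664). Of the other named genes, the collagen gene COL5A2 was called in opposite directions, lower on day 1 and higher on day 7, with a difference of 4.77.

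Among 64 sets of 4 sham samples examined, for member probes and other named genes, 1 held a sample far from the rest. ADORA2B read 6.15, 6.13, 6.16 and 5.88, and the gap of the lowest was 0.904 of the range, above the critical value of Dixon's test. About 1 in 20 such sets is expected by chance. MYLK3, with its sham samples in 2 pairs, does not meet this criterion.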

How the results depend on the processing

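The fit was repeated with other normalizations, filters, sample averages and blocks and with each sample left out, and 3 settings were chosen after seeing the data: each graft group as 1 sample, sham arrays 1 and 2 only, and sham arrays 3 and 4 only. In the other settings, 648 of 691 fold changes of contractile probes kept their direction and call, 18 lost the call, 25 gained it and none changed sign. All 8 day 1 calls were kept in every setting that tested those probes. Of 110 calls of other named genes, 25 lost the call in at least 1 setting and none changed sign.

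With normexp background correction 10403, 6901 and 7294 probes were called in the day 1 and day 7 comparisons with sham and between the grafts (17790, 11757 and 14277 in the fit reported), and 3 contractile probes were called on day 7 against sham in place of 7. With the brightest probe of each gene, or of each transcript identifier that had no gene name, 19291 features were tested. Of these 9817, 6023 and 8011 were called, and 4, 3 and 4 of the contractile genes. On day 7 against sham, 12 contractile probes were called with all 16 arrays as separate samples, 12 against sham arrays 1 and 2 only, 1 against sham arrays 3 and 4 only and 1 with each graft group as 1 sample. On day 1, 13 were called against sham arrays 1 and 2 only. Leaving out 1 sample gave 8 contractile probes on day 1, 3 to 8 on day 7 and 7 to 8 between the grafts, 16902 to 17970, 10745 to 11845 and 12838 to 14445 probes in all, and 59 to 63, 43 to 49 and 45 to 50 genes of the lists. Same-numbered arrays did not vary together (correlations of deviations -0.02 to 0.04), and with the replicate number as a block 12 contractile probes were called on day 7 against sham.

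Against sham arrays 3 and 4 only, the day 1 differences of the MYLK3 probes turned to 0.68, 0.31, 0.52, 0.54 and 0.47, and the day 7 difference of TPM1 to 0.082. Scaling to the 75th percentile turned TPM1 on day 7 to 0.31 and ACTB to -0.12. Normexp turned ACTB to -0.037 on day 1 and to -0.10 on day 7, where leaving out 1 sample gave -0.060 to 0.073. Scaling to the 75th percentile moved the median of all probes on day 1 from 0.12 to 0.47, and from -0.03 to -0.41 between the grafts. The share of calls that were higher went from 50.6% to 64.0% and from 52.8% to 32.1%. The cause was not tested. A dim probe such as TPM2, at 55.3 to 64.7 on day 1 arrays, leaves little room to measure a deeper fall.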
